A study of Mus musculus with 5 samples.

Results

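The proteasome subunit genes were followed through an RNA Polymerase II ChIP-Seq experiment on in vitro differentiated Th2 cells. Genes were taken from the deposited gene table by name, as those starting with Psma, Psmb, Psmc, Psmd, Psme or Psmg and a number, without the immunoproteasome genes Psmb8, Psmb9 and Psmb10. A gene was kept where the authors' peak caller, SICER, had placed an enriched interval at it in either Parp14+/+ library. This gave 36 genes of the 11608 lines of the table, or of the 7971 lines with such an interval. Of the 36, 35 encode proteasome subunits, assembly chaperones or activators. The remaining one, Psmc3ip, encodes a partner of the meiotic recombination machinery and entered through its name alone. The transcript accession of the line named the same gene for all 36, and each line overlapped the gene of that name in NCBIM37, the assembly of mm9. Because presence in a Parp14+/+ library chose the genes, the number of genes with an interval in those libraries is given as a description.

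The cells were naive CD4+ CD62L+ T cells from spleens of C57BL/6 mice of 6 to 8 weeks, activated through CD3 and CD28 with IL-4 and anti-IFN-g for 3 days and expanded with IL-2 and IL-4 for 4 days. The 4 ChIP libraries came from Parp14+/+ cells, Parp14+/+ cells with PJ34, Parp14-/- cells and Parp14-/- cells with PJ34, and an Input library served SICER as control. PJ34 is an inhibitor of ADP-ribosyltransferases that is not selective for PARP-14, the ADP-ribosyltransferase that Parp14 encodes. The sample labels give 10 µM PJ34 on differentiated Th2 cells, whereas the study's methods name a lower dose. The antibody recognised RNA Polymerase II phosphorylated on serine 2 of its tail, the form found in the elongating enzyme. Each condition had 1 library, so no test between conditions was possible, and no p-value or replicate error is given. In a population of cells, fewer cells with polymerase on a gene and less polymerase per cell cannot be told apart.

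The 26S proteasome degrades proteins that carry ubiquitin chains. Its barrel-shaped 20S core is built of alpha rings, which gate the entrance, and beta rings, which hold the proteolytic sites. The 19S regulatory particle binds the ubiquitinated substrate, removes the ubiquitin and, with a ring of ATPases, unfolds and threads the protein into the core. Assembly chaperones help to build the particle, and the PA28 activators Psme1, Psme2 and Psme3 can cap the core in place of the 19S particle. Transcription of the subunit genes is known to be raised together by NRF1 through antioxidant response elements when the proteasome is inhibited.

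Promoter sequences were examined first, because the rule used no sequence. RefSeq promoters of GRCm38.p6, 250 bases before to 50 bases after the annotated start, were found for 29 of the 35 proteasome genes. The letters CGGAAG, the core bound by ETS transcription factors, were present on either strand in 18 of the 29 (62.1%). The share was 37.7% of 5542 genes with an interval in a Parp14+/+ library and 18.8% of all 27025 genes of the promoter table. All 9 of the 19S non-ATPase genes with a promoter held the core, as did 4 of 5 ATPase genes, 2 of 4 beta ring genes and 2 of 6 alpha ring genes. Among the other roles, 1 of 3 activator genes and 0 of 2 assembly chaperone genes held the core. The stretch around the core nearest to the start is given for the 9 non-ATPase genes, since these are the role in which every matched promoter held it. The core is in capitals, as CGGAAG or as its reverse complement.
Psmd1, chr1:86064537-86064562, plus strand: tctcgagaggCGGAAGctgcataaaa
Psmd2, chr16:20651616-20651641, plus strand: ccgcagggcgCTTCCGgtctggagga
Psmd4, chr3:95042723-95042748, minus strand: acagctgttcCGGAAGctgctgcgaa
Psmd6, chr14:14120927-14120952, minus strand: actcctcctgCTTCCGctggtggccc
Psmd8, chr7:29180674-29180699, minus strand: agcgaacggaCTTCCGttcgccattt
Psmd11, chr11:80428594-80428619, plus strand: gagggcgggtCTTCCGggtgtgtgtt
Psmd12, chr11:107479501-107479526, plus strand: gagcgggcgaCTTCCGgtgcgagtga
Psmd13, chr7:140882379-140882404, plus strand: cccgcggtgcCGGAAGtgagcgagca
Psmd14, chr2:61711570-61711595, plus strand: gctcgcctgaCTTCCGcctcgcgggg

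The core lay within 30 bases of the annotated start in 6 of these 9 genes. Its first base was at -72 in Psmd1, -114 in Psmd14 and -124 in Psmd4, counted in bases from the start. The Psmd13 promoter held 3 cores, those of Psmd6 and Psmd12 held 2, and the other 6 held 1.

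The antioxidant response element core was searched as TGAC, any 3 bases, then GC, on either strand. It was present in 5 of the 29 promoters (17.2%), against 17.3% of genes with a Parp14+/+ interval and 14% of all genes. The 5 sites are shown because NRF1 and NRF2 are the known regulators of this gene family through this element.
Psmb5, chr14:54618024-54618052, minus strand: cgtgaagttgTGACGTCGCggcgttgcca
Psmb6, chr11:70525338-70525366, plus strand: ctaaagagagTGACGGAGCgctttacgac
Psmc6, chr14:45329587-45329615, plus strand: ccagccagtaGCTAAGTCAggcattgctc
Psmd9, chr5:123228149-123228177, plus strand: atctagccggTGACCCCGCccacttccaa
Psmd12, chr11:107479278-107479299, plus strand: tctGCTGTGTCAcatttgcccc

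Psmb5, Psmb6 and Psmd9 carried it close to the start, with its first base at -47, -9 and -31, and Psmc6 and Psmd12 far from it, at -227 and -247. The CCAAT box was present in 10 of 29 promoters (34.5%, against 41.7% of genes with a Parp14+/+ interval), and TATAAA in 3 (10.3%, against 8.79%). A match of these letters is a description of the sequence and does not show that a factor bound there. The motifs could overlap one another.

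**Figure D1:**
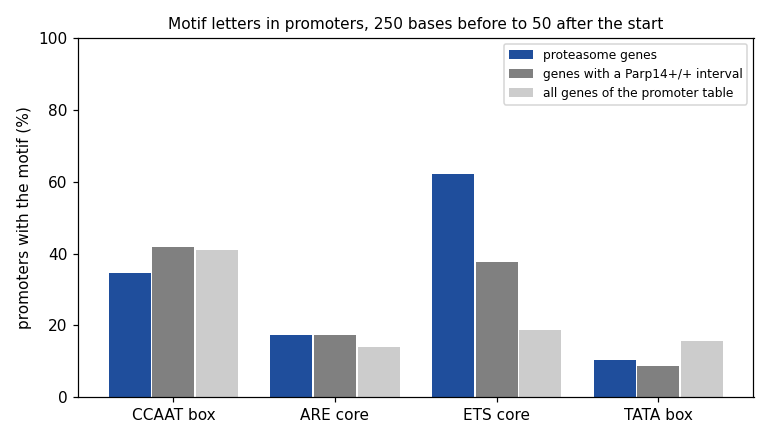
Share of promoters (%, from 250 bases before to 50 after the start) that held each set of letters on either strand, for the 29 proteasome genes with a promoter, for genes with an interval in a Parp14+/+ library and for all genes of the promoter table. The ETS core stood at 62.1% of the proteasome genes against 37.7% and 18.8%, while the ARE core, the antioxidant response element core, stood at 17.2% against 17.3% and 14%.

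The value of a gene was its average peak height, the mean over its active regions of the highest pile-up of overlapping fragments. An active region joins intervals that overlap, whichever of the table's libraries they came from, so neighbouring genes can share 1 region and its value. Heights are given throughout in the order Parp14+/+, Parp14+/+ + PJ34, Parp14-/- and Parp14-/- + PJ34. In this order the medians over the 36 genes were 9.75, 9, 8.17 and 8.75, against 10, 10, 9.5 and 9 over the 7971 lines. Heights ran from 3 to 19, so that the counting interval of most genes was wide. The authors had cut all libraries down to an equal number of aligned reads, and the summed height of all lines ranged from 120655 in Parp14-/- + PJ34 to 130708 in Parp14+/+ + PJ34.

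The libraries carried the marks of Th2 cells. Gata3, the Th2 master regulator, had heights of 60, 58, 45 and 43, and Il4 61, 39, 29 and 18. Cd3e, Cd3d, Cd3g and Cd4 had intervals in a Parp14+/+ library. Markers of other cells, Cd8a, Ms4a1 and Itgam, had none, with heights from 0 to 6. The B cell gene Cd79a went the other way, with an interval in all 4 libraries and heights of 38, 36, 34 and 28. Cd79a shared its value with its neighbour Rps19, and Gata3 likewise shared its value with neighbouring lines. For neither gene can its own signal be told apart from that of its neighbours. Cd8b1, Lyz2 and Cd14 were not found by name. Parp14 itself had heights of 8, 11, 6.67 and 6.67, and all 4 libraries held an interval there. The sources used here do not say which part of Parp14 is deleted, so this does not check the genotype labels.

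**Figure D2:**
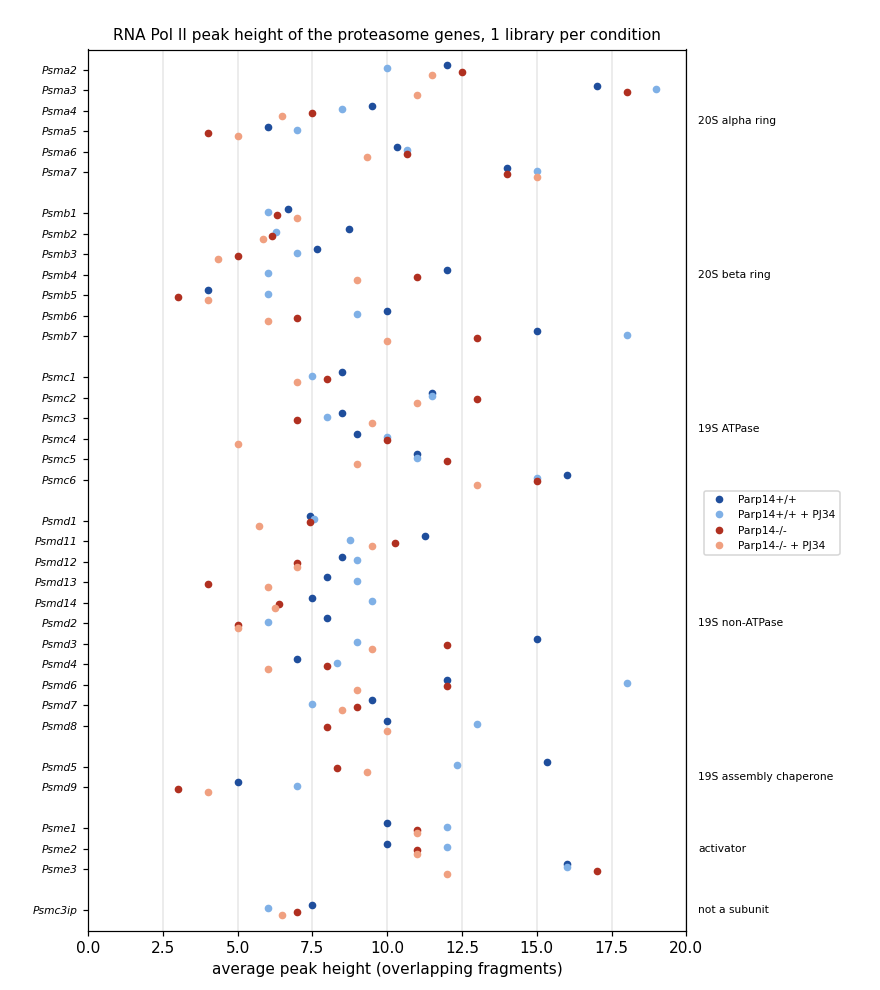
Average peak height (overlapping fragments) of the 36 genes, grouped by role, with 1 point per library. Heights lie between 3 and 19, Psma3 and Psme3 are among the tallest, and in Psmd5, Psmb6 and Psmb7 both Parp14+/+ points lie to the right of both Parp14-/- points.

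The first question was which subunit genes differed with the presence of PARP-14. Between the untreated libraries, 14 of 36 genes (38.9%) had a Parp14+/+ over Parp14-/- ratio above 1.2, against a background of 28.9% of the 7971 lines. None was below 0.83, against a background of 22.1%. The study used 0.83 to 1.2 as its range of no difference between untreated and PJ34 libraries. Between genotypes it used 1.4 and 0.7. It took ratios of 1.2 to 1.4 or 0.7 to 0.83 only for genes with a high average peak value, and asked for a SICER peak in the higher sample. At the stricter limits 8 genes were above 1.4, against 13.3%, and 0 below 0.7, against 9.07%. The median ratio was 1.08, with an order-statistic interval of 1.00 to 1.25, against 1.04 over all lines. Of the genes above 1.2, Psmb3, Psmb5, Psmb6, Psmd2, Psmd5, Psmd9 and Psmd13 had no interval in either Parp14-/- library. The rule kept them through Parp14+/+ alone. The genes above the limit were mostly of low height. Of the 21 genes with a mean height under 10, 11 were above 1.2, with a median of 1.21, whereas of the 15 taller genes 3 were above 1.2 and 8 below 1 (40.5% of all lines), with a median of 0.968. Over all lines, the same heights gave medians of 1.06 and 1.00, with 31.1% and 26.3% above 1.2.

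The absence of genes below 0.83 also rested on the rule, which asks both for the table's name and for a Parp14+/+ interval. Lines that the transcript accession assigns to Psma1, Psme4, Psmg1, Psmg2 and Psmg3 carry other names in the table and were therefore outside the rule, and Psma1 and Psme4 also lacked a Parp14+/+ interval. Psme4, which encodes the nuclear activator PA200, had heights of 3.67, 4, 8.5 and 4 and a ratio of 0.432 (counting interval 0.189 to 0.886). Psma1, an alpha ring gene, had heights of 5, 6, 8 and 4 and a ratio of 0.625, and the 20S assembly chaperone gene Psmg1 had 18, 21, 24 and 18 and a ratio of 0.75. With these 5 lines added, 3 of 41 genes were below 0.83, and with the naming alone changed, which adds the 3 Psmg genes, 1 of 39 was, Psmg1. The rule therefore divided the family at an interval in a Parp14+/+ library: just inside it lay Psmb5 and Psmd9, with an interval in the Parp14+/+ + PJ34 library alone, and just outside it lay Psma1 and Psme4, with none in either.

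Between the PJ34-treated libraries, which share none with the untreated pair, 19 of 36 genes (52.8%) had a Parp14+/+ over Parp14-/- ratio above 1.2, against a background of 44.2%. Psmb4 alone was below 0.83, against a background of 11.9% of lines. At the stricter limits 10 were above 1.4, against 23.6%, and 1 below 0.7, against 4.55%. The median was 1.25 (1.07 to 1.39) against 1.16 over all lines. Since the whole table was shifted in this pair, the counts were also taken relative to that median, which left 11 genes above 1.2 and put 8 below 0.83, against 25.2% and 25.3% of lines scaled alike. In 10 genes the ratio was above 1.2 in both pairs, against a background of 15.1%, in 4 in the untreated pair alone, in 9 in the PJ34 pair alone and in 13 in neither. Of the 10, Psmb3, Psmb5, Psmb6, Psmd5, Psmd9 and Psmd13 had no interval in either Parp14-/- library. Both Parp14+/+ libraries stood above both Parp14-/- libraries in 12 of 36 genes, against a background of 28.1% of lines, and the reverse order was found in 0 genes, against 9.45%. Of the 12, Psmb3, Psmb6, Psmd2, Psmd5, Psmd9 and Psmd13 had no Parp14-/- interval. The rule kept such genes only through Parp14+/+, as it did such lines of the background, so these counts rest in part on the rule.

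**Figure D3:**
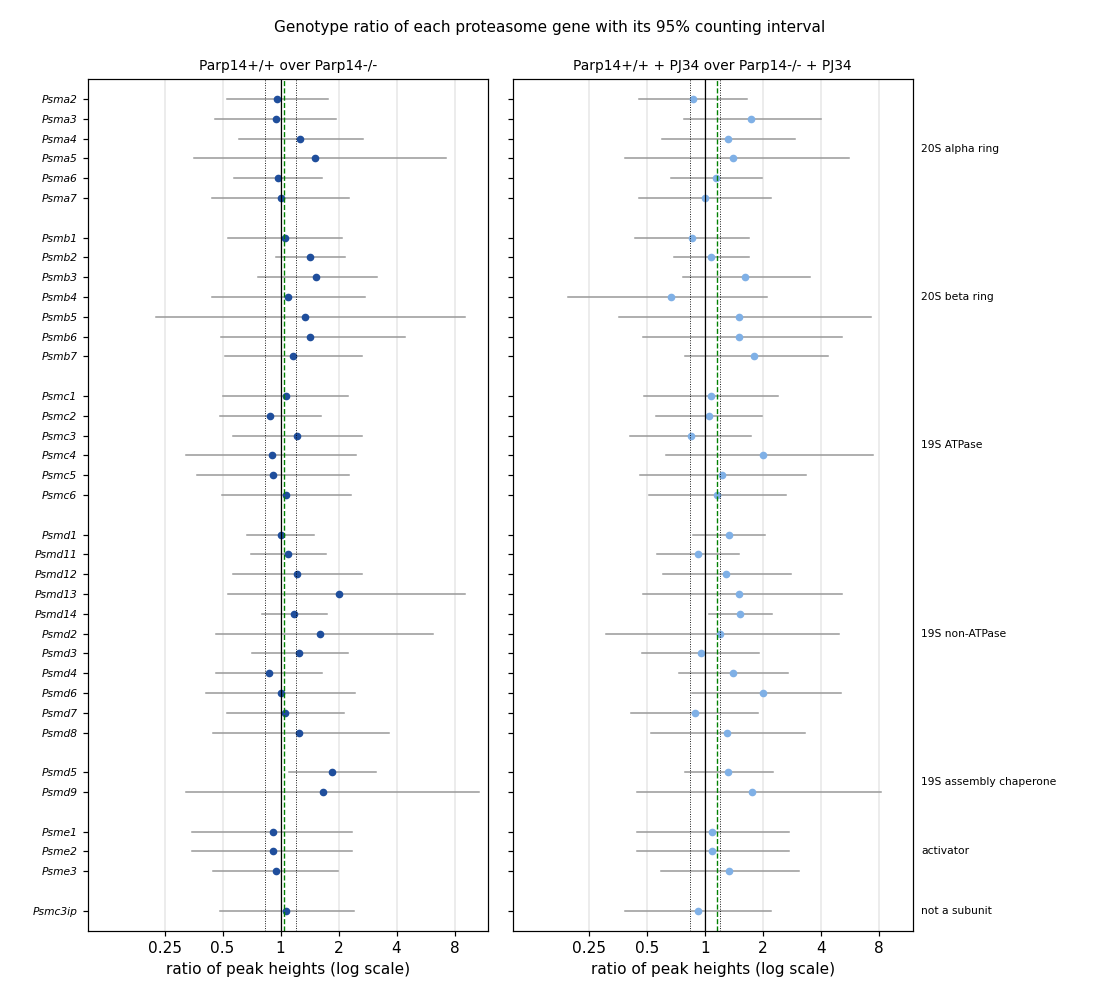
Ratio of peak heights on a log scale for each gene, untreated on the left and with PJ34 on the right, with its 95% counting interval as a grey line. The solid line marks 1, the dotted lines 1.2 and 0.83, and the dashed line the median of all lines with a Parp14+/+ interval (1.04 and 1.16). The interval lay above 1 for Psmd5 on the left and for Psmd14 on the right.

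Counting intervals were computed as exact binomial (Clopper-Pearson) intervals of the summed heights and cover counting error only. They excluded 1 in 1 of 36 genes in each genotype pair, Psmd5 and Psmd14, and in none of the pairs with and without PJ34. Over all lines the interval lay above 1 in 1.08% and below 1 in 1.94% for the untreated genotype pair, and in 2.91% and 0.74% for the PJ34 pair. For untreated over PJ34, these shares were 0.69% and 0.979% in Parp14+/+ and 1.32% and 0.263% in Parp14-/-.

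The alpha ring genes showed little difference in the untreated pair. Psma3, the tallest of the 36 on average, had heights of 17, 19, 18 and 11, so that the Parp14-/- + PJ34 library stood below the other 3. Its genotype ratio was 0.944 (0.457 to 1.94) without PJ34 and 1.73 (0.781 to 4.02) with PJ34. Psma7 was at 14, 15, 14 and 15, and Psma6 at 10.3, 10.7, 10.7 and 9.33, and the 4 average heights were close for both. On the highest interval summit the Psma6 libraries stood apart, at 16, 16, 7 and 9, with an untreated genotype ratio of 2.29. The Parp14-/- summit lay within the gene, the Parp14+/+ + PJ34 summit upstream and the other two downstream. Psma2 had 12, 10, 12.5 and 11.5. Psma4 (9.5, 8.5, 7.5 and 6.5) and Psma5 (6, 7, 4 and 5) were the 2 alpha ring genes in which both Parp14+/+ libraries were above both Parp14-/- libraries. Each of the 6 alpha ring genes had an interval in every library. Of the 6, all but Psma6 shared their value with a neighbouring line, among them Mrpl32 for Psma2, Sort1 for Psma5 and Lsm14b for Psma7, so the polymerase of the neighbours cannot be told apart from theirs.

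The beta ring was the largest role in which every gene lay on the same side of 1 in the untreated pair. All 7 genes were above 1, against a background of 51.1% of lines, with a median of 1.33, and ratios ran from 1.05 for Psmb1 to 1.53 for Psmb3. Of these, Psmb3, Psmb5 and Psmb6 had an interval in a Parp14+/+ library alone. The rule kept them only through the genotype in which they stood higher, so the shared direction rests in part on the rule. The 3 genes of the catalytic subunits were all in this direction, although Psmb6 shares its value with Gltpd2, and Psmb5 shares its value with an unnamed line and has no active region over the gene itself. Psmb5, which encodes the chymotrypsin-like site, had heights of 4, 6, 3 and 4, the lowest mean of the 36, and a ratio of 1.33 with a counting interval of 0.226 to 9.10. Psmb6, the caspase-like site, had 10, 9, 7 and 6 and a ratio of 1.43 (0.491 to 4.42). Psmb7, the trypsin-like site, had 15, 18, 13 and 10, with ratios of 1.15 (0.512 to 2.63) without PJ34 and 1.80 (0.788 to 4.36) with PJ34. In Psmb6 and Psmb7 both Parp14+/+ libraries were above both Parp14-/- libraries, although no counting interval excluded 1.

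Among the structural beta genes, Psmb2 had heights of 8.71, 6.29, 6.14 and 5.86 over 7 active regions, so that the untreated Parp14+/+ library stood apart from the other 3. Its genotype ratio was 1.42 (0.945 to 2.15) without PJ34 and 1.07 (0.685 to 1.68) with PJ34. Psmb3 had 7.67, 7, 5 and 4.33 and ratios of 1.53 (0.766 to 3.16) and 1.62 (0.772 to 3.51). Psmb4 had 12, 6, 11 and 9, and its Parp14+/+ + PJ34 library was the lowest of the 4, with a genotype ratio of 0.667 (0.195 to 2.10) under PJ34. Psmb1 was nearly level at 6.67, 6, 6.33 and 7. The direction shared by the 7 genes in the untreated pair was held by 5 of them with PJ34, against a background of 66.2% above 1.

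The ATPase genes of the 19S particle, which drive unfolding, had a median untreated ratio of 0.990, with 3 genes above and 3 below 1. Psmc6, the tallest of them, had heights of 16, 15, 15 and 13, and the 4 libraries differed little. Its whole promoter, given because it held both an antioxidant response element core and an ETS core (in capitals), read as follows.
Psmc6, chr14:45329574-45329873, plus strand: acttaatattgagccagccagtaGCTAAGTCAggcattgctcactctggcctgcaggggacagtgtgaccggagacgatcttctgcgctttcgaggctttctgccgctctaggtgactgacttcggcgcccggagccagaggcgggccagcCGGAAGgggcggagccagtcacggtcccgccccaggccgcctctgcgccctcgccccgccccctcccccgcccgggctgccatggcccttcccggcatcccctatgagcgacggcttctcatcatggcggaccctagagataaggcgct

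Psmc2 had heights of 11.5, 11.5, 13 and 11 and an untreated genotype ratio of 0.885 (0.482 to 1.61). Psmc3 had 8.5, 8, 7 and 9.5, and Psmc1 8.5, 7.5, 8 and 7. In Psmc4 (9, 10, 10 and 5) and Psmc5 (11, 11, 12 and 9) the Parp14-/- + PJ34 library was the lowest. The Psmc4 ratio was 0.9 (0.324 to 2.46) without PJ34 and 2.00 (0.623 to 7.46) with PJ34, from a single active region. No ATPase gene had both Parp14+/+ libraries above both Parp14-/- libraries.

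The non-ATPase genes of the 19S particle had a median untreated ratio of 1.18, with 8 of 11 above 1. Psmd14, which encodes the deubiquitinase that removes ubiquitin from the substrate, lies at chr2:61549826-61638433 (mm9) and had the most active regions of the 36, 8. Its heights were 7.5, 9.5, 6.38 and 6.25, with the Parp14+/+ libraries above the others, and the genotype ratio was 1.18 (0.796 to 1.74) without PJ34 and 1.52 (1.05 to 2.22) with PJ34. The latter was one of the 2 ratios whose counting interval excluded 1. On the highest interval summit the untreated ratio of Psmd14 was 2.00. Psmd4, a ubiquitin receptor, had 7, 8.33, 8 and 6 and ratios of 0.875 (0.463 to 1.64) and 1.39 (0.728 to 2.70).

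The large scaffold genes Psmd1 and Psmd2 differed from each other in height pattern. Psmd1 had 7.43, 7.57, 7.43 and 5.71 over 7 active regions, with the Parp14-/- + PJ34 library lowest. Psmd2 had 8, 6, 5 and 5 from 1 assigned region, but no active region lay over the gene itself. Psmd6, a lid subunit gene, had 12, 18, 12 and 9, so that its Parp14+/+ + PJ34 library stood above the other 3, and its genotype ratio was 1.00 (0.411 to 2.43) without and 2.00 (0.853 to 5.05) with PJ34. Psmd3, also of the lid, had 15, 9, 12 and 9.5, and here both untreated libraries stood above both PJ34 libraries. Its untreated genotype ratio was 1.25, and 3.33 on the highest interval summit.

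Of the remaining non-ATPase genes, Psmd12 (8.5, 9, 7 and 7) and Psmd13 (8, 9, 4 and 6) had both Parp14+/+ libraries above both Parp14-/- libraries. Psmd11 had 11.3, 8.75, 10.3 and 9.5, and Psmd7 9.5, 7.5, 9 and 8.5. Psmd8 had 10, 13, 8 and 10 and shared this value with its neighbour Ggn, as Psmd13 shared its value with Cox8b. The highest untreated ratio of the 36 genes was that of Psmd13, 2.00, with a counting interval of 0.536 to 9.08.

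Psmd5 encodes a chaperone that holds ATPase subunits during assembly of the 19S particle. Of the 36 genes, it alone had an untreated genotype ratio whose counting interval excluded 1. Over all lines the interval lay above 1 in 1.08% and below 1 in 1.94%. Psmd5 lies at chr2:34707609-34726482 (mm9, minus strand) and had heights of 15.3, 12.3, 8.33 and 9.33, with both Parp14+/+ libraries above both Parp14-/- libraries. The ratio was 1.84 (1.11 to 3.13) without PJ34 and 1.32 (0.787 to 2.24) with PJ34, and the latter interval included 1. The other chaperone gene, Psmd9, had 5, 7, 3 and 4, in the same direction at a low height. Neither gene had an interval in a Parp14-/- library. The rule kept both only through the genotype in which they stood higher, so their direction rests in part on the rule.

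The activator genes were the role with no ratio above 1 in the untreated pair. Psme1 and Psme2, which encode the subunits of the interferon-inducible PA28 ring, share 1 active region and the same heights of 10, 12, 11 and 11, so they count as 1 measurement. Psme3, the nuclear PA28 gene, had 16, 16, 17 and 12 and a ratio of 0.941 (0.445 to 1.98), which was 1.33 (0.592 to 3.09) with PJ34. Its value is shared with Aoc2 and Aoc3. Psmc3ip, which is not a subunit gene, had 7.5, 6, 7 and 6.5.

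A second question was the effect of PJ34 within each genotype. These 2 comparisons each share a library with both genotype pairs, and their values are given on their own. In Parp14+/+ cells, 8 of 36 genes had an untreated over PJ34 ratio above 1.2, against a background of 17.9%, and 5 were below 0.83, against 26.9%. The median was 1.00 (0.895 to 1.11) against 0.960 over all lines. Above 1.4 there were 2, against 6.95%, and below 0.7 there were 2, against 10.4%. In Parp14-/- cells, 10 of 36 were above 1.2, against 32.8%, and 6 below 0.83, against 14.8%, with a median of 1.08 (1.00 to 1.17), against 1.08 over all lines. Above 1.4 there were 3, against 14.4%, and below 0.7 there was 1, against 5.7%. The peak height of the genes as a group was thus within 0.05 of the table's median in both genotypes.

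Single genes spread more widely. In Parp14+/+ cells the highest ratio was that of Psmb4, 2.00 (0.695 to 6.49), and among genes with a summed height of at least 15 the highest were Psmd3, 1.67 (0.899 to 3.17), Psmb2, 1.38 (0.926 to 2.09), and Psmd11, 1.29 (0.808 to 2.06). The lowest of these were Psmd6, 0.667 (0.293 to 1.46), Psmd14, 0.789 (0.553 to 1.12), and Psmb7, 0.833 (0.391 to 1.75). In Parp14-/- cells the highest ratio was that of Psmc4, 2.00 (0.623 to 7.46), and the lowest that of Psmd13, 0.667 (0.138 to 2.81). Among genes with a summed height of at least 15, Psma3 had 1.64 (0.732 to 3.83), Psme3 1.42 (0.638 to 3.25) and Psmd4 1.33 (0.694 to 2.61), and Psmc3 was lowest of these at 0.737 (0.342 to 1.55), followed by Psmd5 at 0.893 (0.499 to 1.59). No counting interval of these ratios excluded 1.

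**Figure D4:**
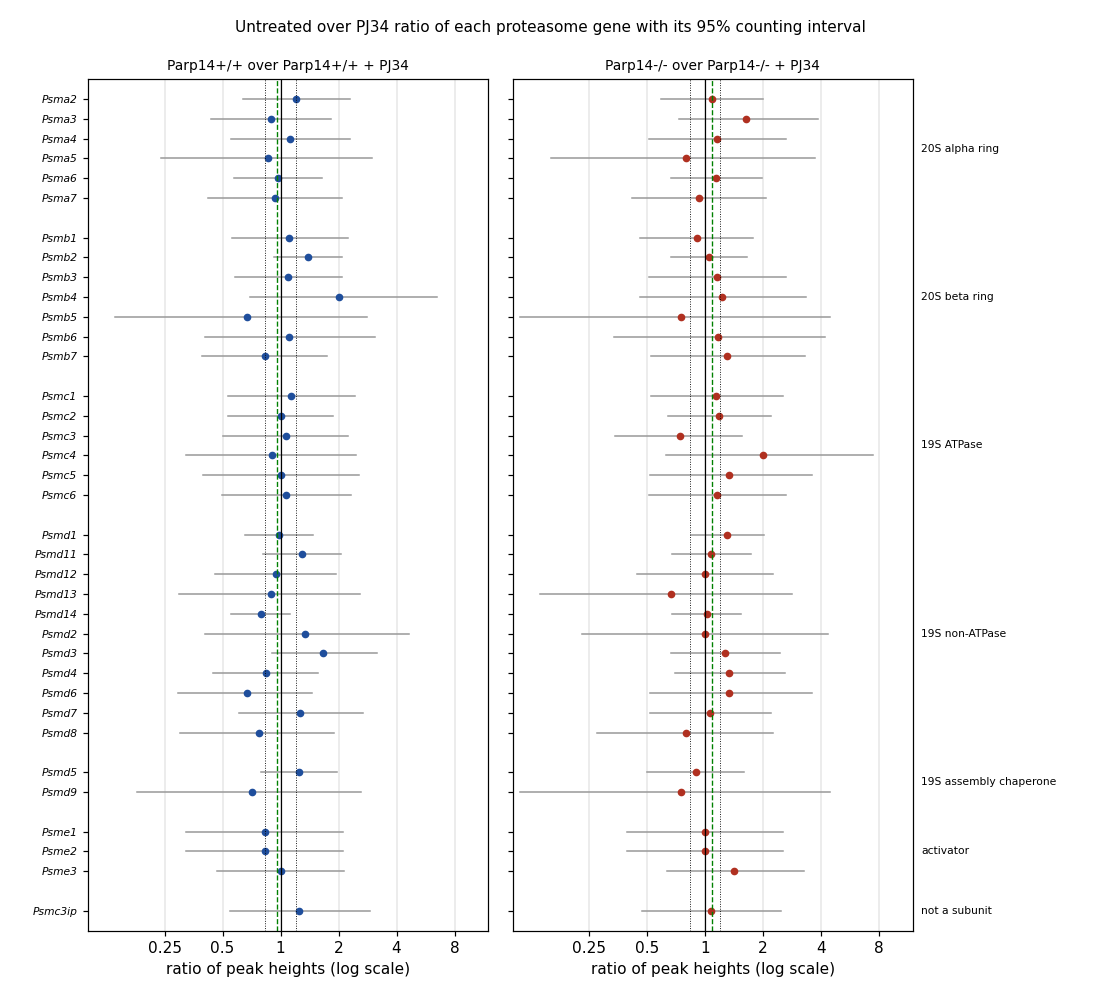
Ratio of the untreated over the PJ34 library on a log scale for each gene, Parp14+/+ on the left and Parp14-/- on the right, with 95% counting intervals as grey lines. Solid, dotted and dashed lines mark 1, the limits 1.2 and 0.83, and the median of all lines (0.960 and 1.08). Every interval includes 1.

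The presence and extent of intervals were described next. SICER placed intervals at 34, 28, 26 and 24 of the 36 genes, in the same order of libraries, against 89.2%, 87.5%, 72.2% and 68.8% of the 7971 lines. An interval in each of the 4 was found in 23 genes, against 58.7%. The first 2 counts are set in part by the rule, for genes and background alike, and an excess over the Parp14-/- libraries is built into it. Of the 36, 9 had no interval in either Parp14-/- library, against 21.2% of lines, namely Psmb3, Psmb5, Psmb6, Psmc4, Psmd2, Psmd4, Psmd5, Psmd9 and Psmd13.

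The share of gene length that lay under intervals was highest in the untreated Parp14+/+ library. Over the 36 genes together it was 52.0%, 24.9%, 22.7% and 17.2%, in the same order, against 23.6%, 19.1%, 16.9% and 15% over the 7971 lines. The median gene was covered by 49.0%, 7.19%, 12.4% and 4.11%, against 21.6%, 14.4%, 7.11% and 5.26%. Lines of similar length (6782 to 19723 bp, 2235 lines) had medians of 26.6%, 19.6%, 10.4% and 8.76%. The total extent of intervals also differed between libraries, from 98.1 Mb in Parp14+/+ to 65.5 Mb in Parp14-/- + PJ34, and its part in these shares was not tested. The rule, which asked for an interval in a Parp14+/+ library, applied equally to the background. It builds an excess over the Parp14-/- libraries into both, so differences in coverage between genotypes rest in part on the rule.

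More of the gene was covered without than with PJ34 in 27 of 36 genes in Parp14+/+ cells, against a background of 47.6% of lines, and in 19 of 36 in Parp14-/- cells, against 34.2%. Between genotypes, more was covered in Parp14+/+ in 22 of 36 untreated, against 53.5%, and in 16 of 36 with PJ34, against 48.3%. The gap exceeded 50 percentage points in favour of the untreated Parp14+/+ library in 7 genes against Parp14-/- (background 7.15%) and in 6 against Parp14+/+ + PJ34 (background 4.55%). The genotype counts rest in part on the rule. Among the 7 were Psmb3 and Psmd5, which it kept through Parp14+/+ alone. The opposite gap was found in 2 genes against Parp14-/- (1.19% of lines), Psmb4 and Psme2, and in 1 against Parp14+/+ + PJ34 (1.76%), Psmb4. Psme2 was covered over 26.6% in Parp14+/+ and 93.9% in Parp14-/-.

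Single genes showed how far coverage and height could part. Psmb2 was covered over 67.7% of its length in Parp14+/+ but over 0%, 1.25% and 0% in the other 3 libraries, although its heights in these were above 5.8. Psmd5 was covered over 84.9%, 7.11%, 0% and 0%, and Psmb3 over 58.1% in Parp14+/+ and 0% elsewhere. The rule kept Psmd5 and Psmb3 through Parp14+/+ alone, so their genotype contrast in coverage rests in part on the rule. Psmd14 was covered over 45.3%, 7.26%, 2.20% and 0%. In these 4 genes the untreated Parp14+/+ library had the largest share under intervals, while some intervals of other libraries that reached past the gene were of similar length, such as 7350 bp in Parp14-/- at Psmb2 against 9000 bp in Parp14+/+.

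Psme1, Psma3 and Psma7 were covered over most of their length in each library. Psme1 was fully covered in all 4 libraries, Psma3 over 100%, 95.6%, 84.4% and 83.3%, and Psma7 over 100%, 90.0%, 100% and 80.1%. Psmd6 and Psmd8 were covered over 100% and 100% in Parp14+/+ and over 85.1% and 88.1% in Parp14+/+ + PJ34. Their coverage was lower in Parp14-/-, at 44.2% and 1.23%, and in Parp14-/- + PJ34, at 2.89% and 1.23%. Psmb4 went the other way, with 0% in Parp14+/+ and 100% in both Parp14+/+ + PJ34 and Parp14-/-. Psmb5 and Psmd2 had intervals assigned in the table but none over the gene body in any library.

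**Figure D5:**
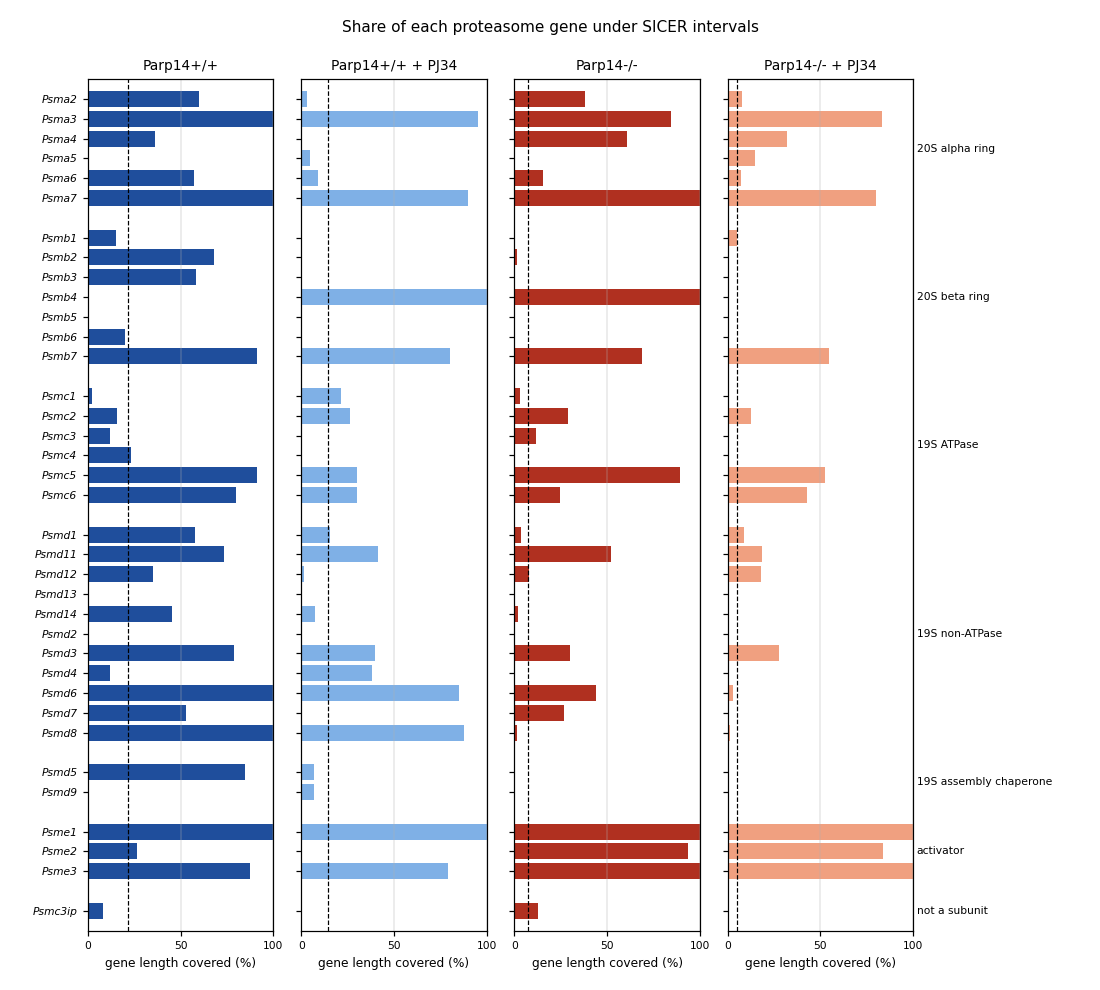
Share of gene length (%) under SICER intervals for each of the 36 genes in each of the 4 libraries, grouped by role, with the median of the 7971 lines as a dashed line. The Parp14+/+ panel holds long bars in each role but that of Psmc3ip, and those of Psmb2, Psmb3 and Psmd5 are at or under 7.11% in the other 3 panels. Psmb3 and Psmd5 had no Parp14-/- interval and were kept by the rule through Parp14+/+ alone.

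The highest point of the intervals often lay past the end of the gene. Polymerase with phosphorylated serine 2 is known to gather there. Active regions of some genes also ran over neighbours, such as Arid4a at Psma3 and Cdk5r1 at Psmd11. Whether a downstream point belonged to the gene or to a neighbour was not tested. In Parp14+/+ the highest point lay downstream in 17 of 31 genes with an interval over the gene, inside the gene in 13 and upstream in 1, against 39.3% downstream over all lines. The downstream counts were 11 of 23, 13 of 25 and 9 of 20 in the other 3 libraries, against 33.9%, 32.2% and 32.6% of lines. For Psmd11, a lid gene, all 4 libraries had the point downstream, at 107%, 111%, 109% and 106% of the gene's length from its start. For Psma7 all 4 lay near the start, at 7.20%, 13%, 14.1% and 10.4%.

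Other genes of the pathway were taken from a list of 28, of which 27 were found and 25 had an interval in a Parp14+/+ library. In the untreated genotype pair 8 of 25 were above 1.2 and 3 below 0.83, against 28.9% and 22.1% of lines, with a median of 1.08. Vcp, which encodes the ATPase that extracts ubiquitinated proteins, had heights of 11, 9.25, 6.25 and 6.75 and the highest ratio, 1.76 (1.05 to 3.00). The immunoproteasome genes Psmb8 and Psmb9, which share 1 value with Tap1 and Tap2, had 23, 35, 41 and 35 and the lowest ratio, 0.561 (0.321 to 0.957). The ubiquitin gene Ubb, with 40, 41, 48 and 50, had a ratio of 0.833 (0.534 to 1.29).

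With PJ34, 7 of the 25 were above 1.2 and 1 was below 0.83 between genotypes, against 44.2% and 11.9% of lines. Usp14, a deubiquitinase that docks on the 19S particle, had heights of 8, 10.7, 6.33 and 5.67 and a ratio of 1.88 (1.01 to 3.61). Nfe2l1, which encodes NRF1, had 14, 10, 9 and 12, with ratios of 1.56 (0.627 to 4.07) without and 0.833 (0.323 to 2.10) with PJ34. Nfe2l2, which encodes NRF2, had 21.7, 22.7, 25 and 21.7. Between untreated and PJ34 libraries, 5 of 25 were above 1.2 and 5 below 0.83 in Parp14+/+ cells, against 17.9% and 26.9% of lines. In Parp14-/- cells 6 and 5 were, against 32.8% and 14.8%.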

How the data were processed

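RNA Polymerase II ChIP-Seq libraries of 4 conditions and an Input were analysed, with 1 library per condition and groups taken from the sample labels. The authors mapped reads to mm9 with ELAND, removed duplicates, kept equal numbers of alignments and called intervals with SICER against Input (window 150 bp, gap 450 bp). They deposited interval files with the signal at each highest point, and a gene table with the average peak height, also a signal, and a 0 or 1 score for an interval in each library. The table's 8 columns of other libraries were not used.

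Peak heights were compared as ratios without a pseudocount, with limits of 1.2 and 0.83 and 95% Clopper-Pearson intervals of heights summed over active regions (Python 3.11.15, pandas 2.3.3, scipy 1.17.1). These treat overlapping fragments as counts and cover counting error only. The files hold no read totals, so depth was taken as equal between libraries, from the study's methods. The interval calculations were checked on simulated data. The simulated counts were independent draws without a highest point per region, so this check cannot show that counting intervals hold for peak heights.

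The genes, lists and tests were chosen with earlier results of these data known. The coverage measure, naming by accession with an interval and the motif background of genes with a Parp14+/+ interval were chosen after seeing the data. Singled out were the catalytic genes, the tallest 5, the highest and lowest ratios at a summed height of at least 15, genes whose interval excluded 1, the activators and genes with shared values. Paaf1 was not found by name. Values of some listed genes are not reported here. Alternatives covered limits, scaling, pseudocount, height, naming, interval presence, shared values, summit height and chaperones.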

Additional observations from a re-analysis of the deposited data

Results flagged for a closer look

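Psmd6 went opposite ways with PJ34 in the 2 genotypes. Its untreated over PJ34 ratio was 0.667 in Parp14+/+ and 1.33 in Parp14-/-, and the first divided by the second was 0.5. With 1 library per condition the difference was not tested, and 12.3% of the 7971 lines showed such an opposite pair of ratios.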

How the results depend on the processing

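No paired analysis was possible because each condition had 1 library, and for the same reason no library could be left out. Values are for Parp14+/+ over Parp14-/-, the same with PJ34, untreated over PJ34 in Parp14+/+, and the same in Parp14-/-. With limits of 1.4 and 0.7, counts above were 8, 10, 2 and 3, and counts below were 2 and 1 in the last 2. Scaling to the median of all lines gave 11 above and 8 below in the PJ34 genotype pair and a median of 1.00 in Parp14-/-, and scaling to the summed height gave 5 below in the PJ34 genotype pair. With a mean height of at least 10 (15 genes), the untreated genotype median was 0.968, counts above were 3, 7, 2 and 6, and counts below were 0 in the PJ34 genotype pair, 2 and 1 in the last 2. Naming by accession without asking for a Parp14+/+ interval gave 3 and 2 below in the genotype pairs, and naming by accession with it, chosen after seeing the data, 1 and 2. Genes with an interval in all 4 libraries (23) gave 7, 11 and 4 above in the first 3 pairs, and 3 and 3 below in the last 2 pairs. Genes with unshared values (22) gave 8 and 10 above in the genotype pairs, and 3 and 2 below in the last 2. Highest summits, compared in 24, 17, 20 and 18 genes, gave 8, 9 and 5 above in the first 3 pairs, and 3 and 3 below in the genotype pairs. These last 5 alternatives change which genes are counted. On summits, Psmc5 turned to 0.667 in the PJ34 genotype pair and Psmd3 to 0.667 in Parp14-/-, and Psma6, Psmd14 and Psmd3 moved to 2.29, 2.00 and 3.33 untreated between genotypes and Psmd11 to 0.619 in Parp14-/-. The cause was not tested. Of the other summaries, 96 stayed within the limits set for a change. Heights of 3 to 19 limit the precision: the counting interval excluded 1 for 1 gene in each genotype pair.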
